A study of Mus musculus with 10 samples.

Results

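The genes described here mostly encode transferases that attach glutathione, glucuronic acid or sulfate to small molecules. They were taken by symbol from the genes measured by a probe set annotated to 1 gene alone. The brightest such probe set of each gene was used. The symbols were those of glutathione transferases (Gst, mostly cytosolic), microsomal glutathione transferases (Mgst), UDP-glycosyltransferases (Ugt) and cytosolic sulfotransferases (Sult). This gave 50 of the 19938 genes measured, of which 20 were Gst, 3 Mgst, 11 Ugt and 16 Sult genes. The values came from pancreatic islets of male NZO/Hl mice, a strain the labels call diabetes-prone (NZO, 5 arrays), and of male C3HeB/FeJ mice (C3H, 5 arrays). Both strains had eaten a high-fat diet with 45% of its energy as fat since weaning at 21 days and were killed at 6 weeks of age. The islets were freed with collagenase and rested overnight in medium with 10 mM glucose before RNA was taken. The study's stated aim was to find candidate genes in a region of chromosome 7 by combining haplotypes with islet expression. All samples shared this diet, so the comparison is between strains on 1 diet.

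Conjugation is the second stage of the classical handling of drugs, toxins and lipid breakdown products. Glutathione transferases join the tripeptide glutathione to electrophilic compounds and, in some classes, reduce lipid peroxides. UDP-glucuronosyltransferases are membrane enzymes of the endoplasmic reticulum that transfer glucuronic acid from UDP-glucuronic acid, and sulfotransferases transfer sulfate from the donor PAPS to steroids, phenols and amines. These reactions are best known from liver, while pancreatic beta cells are known for low levels of several antioxidant enzymes.

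All values are deposited log2 expression values, so a difference of 1 is a 2-fold change, and each difference is given as NZO minus C3H with the standard error (SE) of the limma fit. A gene was called different at an adjusted p below 0.05, with the adjustment made over all genes tested. A strain's level was named near background where its mean lay at or below the 95th percentile of the olfactory receptor genes, which islets are not expected to use. That percentile was 6.36 in NZO and 6.42 in C3H islets, and no fold is given for a gene near background in either strain. Levels of different genes come from different probes and are not set against each other.

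The 10 arrays had gene medians between 7.46 and 7.55. The endocrine marker score, the mean log2 value of 13 measured islet hormone and identity genes, was 11.05 to 11.58 in NZO and 11.59 to 11.70 in C3H islets, and none of the 13 was near background. The acinar score, the mean of 23 measured genes of the digestive enzyme cells that surround islets, was 10.02, 9.83, 10.34, 11.67 and 11.52 on NZO arrays 1 to 5, against 8.21 to 9.06 in C3H islets. Of the 23 acinar genes, 21 were higher in NZO islets, where 5.47% of all genes were higher. Only Ptf1a of the 23 was near background in both strains. NZO arrays 4 and 5 thus stood apart from the other NZO arrays, and their titles also differ from the rest, carrying 1 animal number and a range of numbers where the others carry 2 numbers. NZO islets were also higher than C3H islets in 6 of 14 macrophage and 3 of 8 duct markers. The same was so for 2 of 10 endothelial and 2 of 10 stellate cell markers. NZO islets were lower in 5 of the 13 endocrine markers, with a median difference of -0.23, and in 1 of 7 hepatocyte markers. Of all genes, 4.61% were lower. Without NZO arrays 4 and 5, 2 macrophage, 2 duct, 1 endothelial and 1 stellate cell marker were called in either direction, where 5.54% of all genes were. The acinar (21), endocrine (5) and hepatocyte (1) counts stayed the same. For every gene below, fewer cells of a type and less RNA per cell cannot be told apart, because whole islet preparations were measured. Whether the strains differ in sequence under the probes, and whether that changes a signal, was not tested.

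Of the 50 transferase genes, 14 (28.0%) differed between the strains, where 10.1% of all genes did. Higher in NZO islets were 6 of them, Sult2b1, Sult1b1, Mgst1, Gsto1, Gstm4 and Gstt3, where 5.47% of all genes were higher. Lower in NZO islets were 8, Gstm1, Gstm2, Gstm3, Gstm5, Gstm6, Sult4a1, Ugt8a and Ugt2b34, where 4.61% of all genes were lower. Without C3H replicate 3 the lower genes numbered 5. In that fit 1475 of the 19938 genes were called in either direction, against 2010 over all arrays. No overlap between the strains was seen for 8 of the 50 genes, Gstm1, Gstm2, Gstm4, Sult2b1, Sult4a1, Ugt8a, Gsto1 and Ugt2b34, as was so for 9.14% of all genes. By family, 3 of 20 Gst genes were higher and 5 lower, 1 of 3 Mgst genes was higher, 2 of 11 Ugt genes were lower, and 2 of 16 Sult genes were higher and 1 lower. The called genes lie on chromosomes 3 (the Gstm genes and Ugt8a), 5 (Sult1b1 and Ugt2b34), 6 (Mgst1), 7 (Sult2b1), 10 (Gstt3), 15 (Sult4a1) and 19 (Gsto1). The median difference was -0.05 over the 50 genes and -0.02 over all genes, and the median size of the difference was 0.14 over the 50 genes and 0.10 over all genes. In 27 of the 50 genes both strains lay above the background level and in 22 both lay near background. Gstp3 was on different sides of it in the 2 strains and was not called different.

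**Figure D1:**
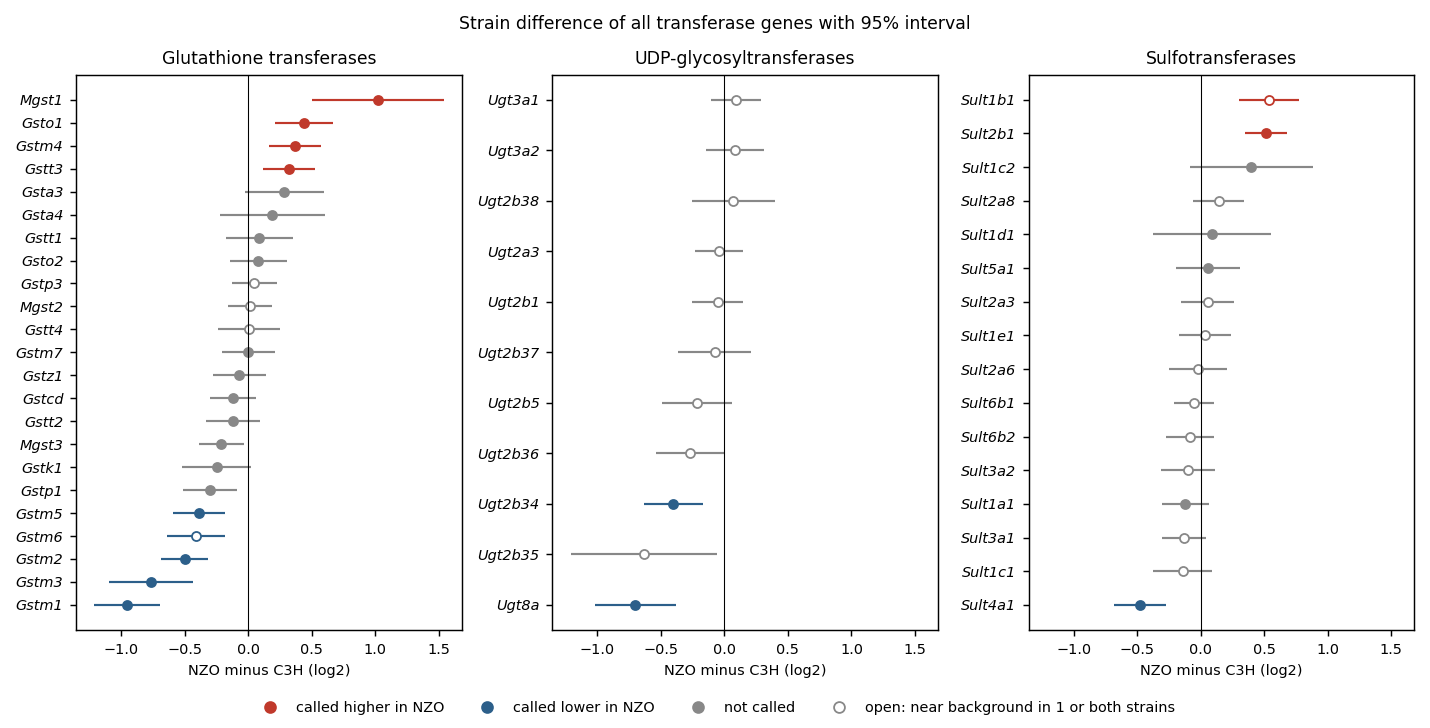
Difference between NZO and C3H islets (log2 units, NZO minus C3H) for the 50 transferase genes, with 95% confidence intervals of the limma fit, in red for genes called higher, blue for genes called lower and grey for genes not called, and with open points for genes near background in 1 or both strains. The interval of Gstm1 runs from -1.22 to -0.70 and that of Mgst1 from 0.50 to 1.54, while most of the other genes lie close to 0.

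The mu class of cytosolic glutathione transferases held 6 of the 14 calls. These enzymes conjugate a broad range of electrophiles, and their genes stand side by side on chromosome 3, in the order Gstm5, Gstm7, Gstm6, Gstm3, Gstm2, Gstm1 and Gstm4. Of the 7 genes, 5 were lower in NZO islets, where 4.61% of all genes were lower. Only 1 was higher, where 5.47% of all genes were higher, and 1 was not called different. The median difference of the 7 was -0.41, against -0.02 over all genes. Gstm6, 1 of the 5 lower genes, was near background in both strains. Gstm3 counts here by its brighter probe set, and its dimmer one was not called different. The mu-class genes are close copies of each other, so a probe set of one may also take up RNA of another.

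Gstm1, a major mu-class enzyme in mouse liver, had values of 8.96, 9.59, 8.99, 8.99 and 9.06 on NZO arrays 1 to 5, against 10.17, 9.80, 10.21, 10.11 and 10.08 on C3H arrays 1 to 5. The highest NZO array, the second, lay 0.21 below the lowest C3H array. The means were 9.12 ± 0.27 in NZO and 10.08 ± 0.16 in C3H islets (SD, n = 5 each), a difference of -0.96 (SE 0.12, adjusted p = 0.00014), or 1.94-fold lower in NZO islets. It had the smallest p of the 50 genes.

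Gstm2, its neighbour, had 8.06, 8.28, 7.84, 7.93 and 7.88 in NZO islets, against 8.55, 8.52, 8.46, 8.50 and 8.47 in C3H islets. The strains did not overlap, and the C3H arrays lay within a narrow range. The means were 8.00 ± 0.18 and 8.50 ± 0.03 in NZO and C3H islets (SD, n = 5 each), a difference of -0.50 (SE 0.09, adjusted p = 0.00159), or 1.42-fold lower. Gstm3 had 7.25, 7.76, 6.88, 6.85 and 7.09 in NZO islets, against 7.88, 7.64, 8.16, 8.01 and 7.96 in C3H islets. Here NZO array 2 lay above C3H array 2, so the strains overlapped by that pair. The means of Gstm3 were 7.17 ± 0.37 in NZO and 7.93 ± 0.19 in C3H islets (SD, n = 5 each), a difference of -0.77 (SE 0.15, adjusted p = 0.00477), or 1.70-fold lower. Gstm3 was the only one of the 50 genes with a second probe set of its own, which was dimmer. That probe set averaged 6.64 ± 0.15 in NZO and 6.89 ± 0.22 in C3H islets, a difference of -0.26 (SE 0.11), and was not called different (adjusted p = 0.184 with every probe set tested). Its use was chosen after the data were seen. By identifier, the brighter probe set lies among those of chromosome 10 genes and the dimmer one between those of Gstm6 and Gstm2. Chromosomes were taken from each gene's Entrez identifier, so the position of the brighter probe set was not checked.

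NZO array 2 held the highest NZO value of Gstm1, Gstm2, Gstm3, Gstm4, Gstm6 and Gstm7, and the lowest NZO value of Gstm5. The same array had the lowest acinar score (9.83) and the highest endocrine score (11.58) of the NZO arrays. C3H array 2 held the lowest C3H value of Gstm1, Gstm3, Gstm6 and Gstm7.

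At one end of the cluster, Gstm5 had 8.78, 8.51, 8.66, 8.77 and 8.89 in NZO islets, against 9.16, 9.15, 9.30, 8.86 and 9.08 in C3H islets. Only C3H array 4 fell within the NZO range. Gstm5 averaged 8.72 ± 0.14 in NZO and 9.11 ± 0.16 in C3H islets (SD, n = 5 each), a difference of -0.39 (SE 0.10, adjusted p = 0.0164), or 1.31-fold lower. The call was lost without C3H replicate 3 (adjusted p = 0.0521). Gstm6 was near background in both strains, with 4.65, 4.89, 4.41, 4.68 and 4.70 in NZO islets, against 5.14, 4.81, 5.33, 5.13 and 4.96 in C3H islets. Its difference was -0.41 (SE 0.11, adjusted p = 0.0250), the strains overlapped, and the call was lost without NZO replicate 3, C3H replicate 1 or C3H replicate 3 (highest adjusted p 0.072).

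Gstm4, at the other end of the cluster, ran the other way. It had 8.9999, 9.18, 8.86, 8.91 and 8.93 in NZO islets, against 8.76, 8.61, 8.68, 8.31 and 8.67 in C3H islets. All NZO arrays lay above all C3H arrays. Gstm4 averaged 8.97 ± 0.13 in NZO and 8.61 ± 0.17 in C3H islets (SD, n = 5 each), a difference of 0.37 (SE 0.09, adjusted p = 0.0225), or 1.29-fold higher. Gstm7, between Gstm5 and Gstm6, had a difference of 0.00 with a 95% interval from -0.21 to 0.21 (adjusted p = 0.994). Its NZO arrays 1 and 2, at 7.59 and 7.60, lay above all C3H arrays, and its NZO arrays 3, 4 and 5, between 7.17 and 7.24, below all of them.

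**Figure D2:**
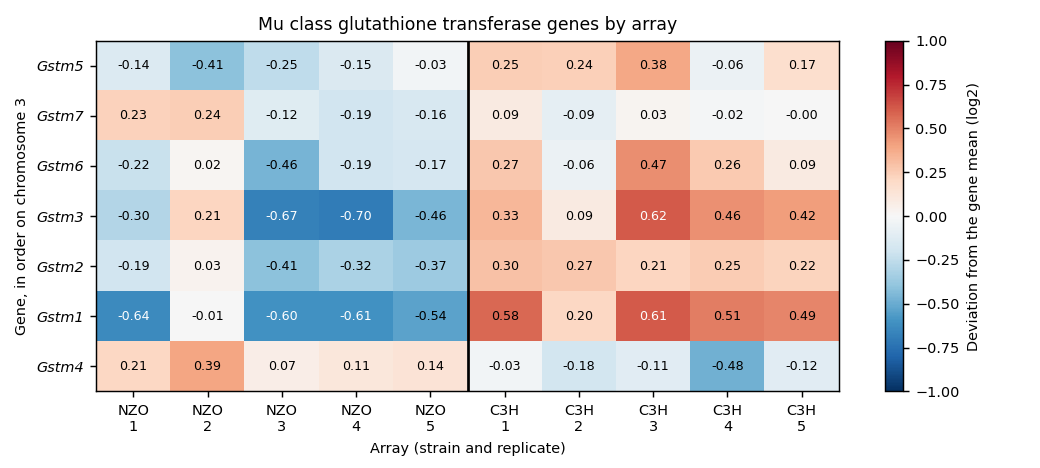
Deviation of each array from the mean of the 10 arrays (log2 units, colour and printed value) for the 7 mu-class genes, which run down the page in their order along chromosome 3, with NZO arrays left of C3H arrays. Gstm1 lies between -0.64 and -0.01 on NZO arrays and between 0.20 and 0.61 on C3H arrays, while Gstm4 lies between 0.07 and 0.39 on NZO arrays and between -0.48 and -0.03 on C3H arrays. The row of Gstm3 shows its brighter probe set, whose own position was not checked.

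Among the other cytosolic classes, Gsto1 and Gstt3 were higher in NZO islets. Gsto1, an omega-class enzyme that reduces dehydroascorbate, had 8.61, 8.51, 8.87, 9.01 and 9.05 in NZO islets, against 8.47, 8.46, 8.38, 8.23 and 8.34 in C3H islets. The strains did not overlap, but NZO array 2 lay only 0.05 above the highest C3H array. Gsto1 averaged 8.81 ± 0.24 in NZO and 8.37 ± 0.10 in C3H islets (SD, n = 5 each), a difference of 0.44 (SE 0.11, adjusted p = 0.0159), or 1.35-fold higher. The NZO arrays with the highest values were 5 and 4, which also had the 2 highest acinar scores, and without these arrays the difference was 0.29 and the call was lost (adjusted p = 0.155).

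Gstt3, of the theta class, had 7.13, 7.31, 7.11, 7.52 and 7.44 in NZO islets, against 6.95, 6.99, 6.87, 7.18 and 6.90 in C3H islets. C3H array 4 lay among the NZO values. The means were 7.30 ± 0.18 in NZO and 6.98 ± 0.12 in C3H islets (SD, n = 5 each), a difference of 0.32 (SE 0.10, adjusted p = 0.0457), or 1.25-fold higher. This call was lost in 7 of the 10 repeats that left out 1 array (highest adjusted p 0.125).

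Gstp1, the pi-class enzyme known for binding the stress kinase JNK, was not called different. It had 10.94, 11.31, 11.10, 11.10 and 11.24 in NZO islets, against 11.57, 11.32, 11.69, 11.36 and 11.27 in C3H islets. Its difference was -0.30 with a 95% interval from -0.51 to -0.09 (adjusted p = 0.0729). It passed in 4 of the alternatives, with the lowest adjusted p (0.0372) under a variance prior with trend and robust fitting. Gstz1, the maleylacetoacetate isomerase of tyrosine breakdown, had 10.33, 10.20, 10.07, 9.95 and 9.94 in NZO islets, against 10.39, 10.11, 10.21, 10.01 and 10.11 in C3H islets. The strains overlapped widely, with NZO arrays 4 and 5 the lowest. Its difference was -0.07 with a 95% interval from -0.27 to 0.14 (adjusted p = 0.781).

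Neither alpha-class gene with a probe set of its own, Gsta3 or Gsta4, was called different. Gsta4, which handles the lipid peroxidation product 4-hydroxynonenal, had 8.54, 8.45, 9.26, 9.53 and 9.37 in NZO islets, against 8.84, 9.19, 8.80, 8.59 and 8.79 in C3H islets. NZO arrays 3, 4 and 5 lay above all C3H arrays and NZO arrays 1 and 2 below all of them, and the difference was 0.19 with a 95% interval from -0.22 to 0.60 (adjusted p = 0.670). Gsta3 had 7.08, 6.88, 7.65, 7.67 and 7.57 in NZO islets, against 7.05, 7.34, 7.10, 6.99 and 6.94 in C3H islets, with the same NZO arrays 3, 4 and 5 on top. Its difference was 0.29 with a 95% interval from -0.03 to 0.60 (adjusted p = 0.287). Gsta3, Gsta4, Gstk1 and Gstm7 were singled out after their values were seen. Gstk1, the kappa-class enzyme of mitochondria and peroxisomes, differed by -0.25 (adjusted p = 0.289).

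Of the microsomal enzymes, which sit in membranes, Mgst1 had the largest difference of all 50 genes. Mgst1, a glutathione transferase that is also a peroxidase for lipid hydroperoxides, had 7.83, 7.15, 8.14, 8.85 and 8.31 in NZO islets, against 6.87, 7.24, 7.30, 6.57 and 7.18 in C3H islets. NZO array 2 fell within the C3H range, and the other 4 NZO arrays lay above it. The means were 8.05 ± 0.63 in NZO and 7.03 ± 0.31 in C3H islets (SD, n = 5 each), a difference of 1.02 (SE 0.24, adjusted p = 0.0140), or 2.03-fold higher. Within the NZO arrays, the order from lowest to highest Mgst1 was 2, 1, 3, 5 and 4, the same as the order of the acinar score. Without NZO arrays 4 and 5 the difference was 0.68 and the call was lost (adjusted p = 0.0865). Mgst3, whose human counterpart also makes a leukotriene, had 8.01, 8.05, 7.70, 7.77 and 7.97 in NZO islets, against 8.19, 8.03, 8.16, 8.10 and 8.07 in C3H islets. NZO array 2 lay just above C3H array 2, and the other NZO arrays lay below all C3H arrays. Its difference was -0.21 with a 95% interval from -0.39 to -0.03 and it was not called (adjusted p = 0.139). Mgst2 was near background in both strains.

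In the UDP-glycosyltransferases, both called genes were lower in NZO islets. Ugt8a is an exception in its family, since it transfers galactose to ceramide, a step of galactolipid synthesis, and not glucuronic acid. It had 7.09, 6.42, 6.69, 6.90 and 6.99 in NZO islets, against 7.48, 8.05, 7.44, 7.30 and 7.31 in C3H islets. The strains did not overlap, and C3H array 2 lay far above the other C3H arrays. The means were 6.82 ± 0.27 in NZO and 7.52 ± 0.31 in C3H islets (SD, n = 5 each), a difference of -0.70 (SE 0.15, adjusted p = 0.00766), or 1.63-fold lower.

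Ugt2b34, a glucuronidating enzyme of the 2B subfamily, had 11.64, 11.61, 11.51, 11.17 and 11.09 in NZO islets, against 11.92, 11.76, 11.86, 11.69 and 11.79 in C3H islets. NZO arrays 4 and 5 were the lowest, and the strains did not overlap. The means were 11.40 ± 0.25 in NZO and 11.81 ± 0.09 in C3H islets (SD, n = 5 each), a difference of -0.40 (SE 0.11, adjusted p = 0.0306), or 1.32-fold lower. Without NZO arrays 4 and 5 the difference was -0.22 (adjusted p = 0.247), and the call was lost in 6 of the 10 repeats that left out 1 array (highest adjusted p 0.0866).

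Every other Ugt gene with a probe set of its own was near background in both strains. Ugt2b35 had the largest difference among the 36 genes not called, with 5.40, 6.25, 5.77, 5.25 and 5.09 in NZO islets, against 6.87, 6.04, 6.71, 5.32 and 6.00 in C3H islets. The strains overlapped widely, and the difference of -0.64 had a 95% interval from -1.21 to -0.06 (adjusted p = 0.174). The Ugt1a enzymes, which include the bilirubin-conjugating Ugt1a1, share their last exons. They were covered by 1 probe set annotated to 8 Ugt1a genes, which was not among the genes tested. That probe set averaged 7.05 ± 0.07 in NZO and 7.28 ± 0.11 in C3H islets (SD, n = 5 each), with the highest NZO array at 7.18 above the lowest C3H array at 7.11.

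Of the sulfotransferases, Sult2b1 had the widest gap between the strains. Its human counterpart sulfates cholesterol and related steroids. Sult2b1 had 8.51, 8.40, 8.32, 8.22 and 8.47 in NZO islets, against 7.93, 7.85, 7.92, 7.73 and 7.93 in C3H islets. The lowest NZO array lay 0.29 above the highest C3H array. The means were 8.38 ± 0.12 in NZO and 7.87 ± 0.09 in C3H islets (SD, n = 5 each), a difference of 0.51 (SE 0.08, adjusted p = 0.00066), or 1.43-fold higher. Without NZO arrays 4 and 5 it was 0.54 (adjusted p = 0.00277). Sult2b1 was the only one of the 50 genes inside the stretch of chromosome 7 named by the study, as placed by its start in GRCm38.p6.

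Sult4a1, an orphan sulfotransferase known from brain, had 7.54, 7.44, 7.46, 7.14 and 7.07 in NZO islets, against 7.79, 7.85, 7.90, 7.78 and 7.72 in C3H islets. The strains did not overlap, and NZO arrays 4 and 5 were the lowest. Sult4a1 averaged 7.33 ± 0.21 in NZO and 7.81 ± 0.07 in C3H islets (SD, n = 5 each), a difference of -0.48 (SE 0.10, adjusted p = 0.00501), or 1.39-fold lower. Sult1b1, which sulfates phenols and thyroid hormones, was near background in both strains, with 4.99, 4.89, 4.58, 4.72 and 5.08 in NZO islets, against 4.31, 4.62, 4.18, 4.34 and 4.14 in C3H islets. C3H array 2 lay above NZO array 3, and the difference was 0.54 (SE 0.11, adjusted p = 0.00602).

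Sult1d1, which sulfates catecholamines in mice, had 9.56, 10.10, 9.42, 8.65 and 9.03 in NZO islets, against 9.59, 9.15, 9.40, 8.81 and 9.36 in C3H islets. The NZO arrays spread on both sides of the C3H arrays. Its difference was 0.09 with a 95% interval from -0.38 to 0.56 (adjusted p = 0.889). Without NZO arrays 4 and 5 it was 0.43 (adjusted p = 0.258), and with the acinar score in the fit 1.01 (SE 0.36, adjusted p = 0.379), so it was not called in either. Sult1c2, singled out after its values were seen, had 8.22, 8.37, 7.99, 7.09 and 7.10 in NZO islets, against 7.60, 7.09, 7.39, 7.25 and 7.43 in C3H islets. NZO arrays 1, 2 and 3 lay above all C3H arrays, and NZO arrays 4 and 5 at their lower edge. Over all arrays the difference of Sult1c2 was 0.40 with a 95% interval from -0.08 to 0.88 (adjusted p = 0.348). Without NZO arrays 4 and 5 it was 0.84 (SE 0.12, adjusted p = 0.000954). From the lowest to the highest acinar score, the NZO arrays ran from the highest to the lowest value of both Sult1c2 and Sult1d1.

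**Figure D3:**
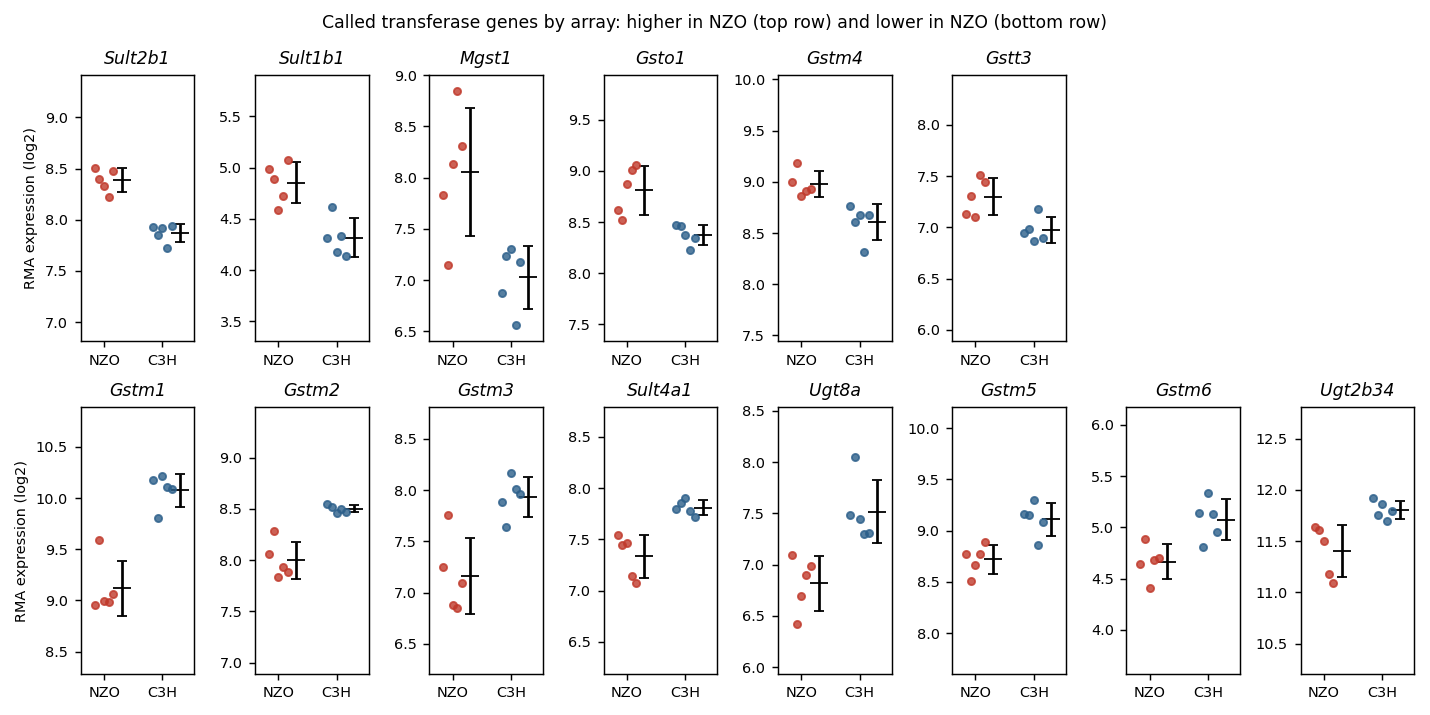
Log2 expression values on each array for the 14 transferase genes called different, NZO left of C3H, with points for arrays and bars for the mean and SD of each strain, and genes higher in NZO islets in the top row. Mgst1 (8.05 in NZO and 7.03 in C3H islets) and Gstm3 (7.17 in NZO and 7.93 in C3H islets) show overlapping strains, while Sult2b1 (8.38 in NZO and 7.87 in C3H islets) does not.

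The remaining genes not called different divided into bright and dim. With both strains above background, 15 genes were not called, among them Gstt1, Gstt2, Gsto2, Gstcd, Sult1a1 and Sult5a1, and their differences ran from -0.30 to 0.40. With both strains near background, 20 genes were not called, and their differences ran from -0.64 to 0.14. The dim group held the estrogen sulfotransferase Sult1e1, 3 Sult2a genes, the Ugt3a genes and all Ugt2 genes but Ugt2b34.

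The acinar score moved with the strain, and the differences were therefore also fitted without NZO arrays 4 and 5 and with the score as a covariate. Without NZO arrays 4 and 5, 9 of the 50 genes were called different, where 5.54% of all genes were. Of the 14 calls 8 were kept, for Gstm1, Gstm2, Gstm3, Gstm5, Sult2b1, Sult4a1, Sult1b1 and Ugt8a. Lost were Mgst1, Gsto1, Gstm4, Gstm6, Gstt3 and Ugt2b34, and Sult1c2 was gained. The differences of Gstm4 (0.41, adjusted p = 0.0622) and Gstm6 (-0.43, adjusted p = 0.0926) were no smaller than over all arrays, while those of Mgst1 (0.68), Gsto1 (0.29), Gstt3 (0.21) and Ugt2b34 (-0.22) were smaller.

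When the acinar score entered the fit, 1 of the 50 genes was called different, where 1.08% of all genes were. That gene was Sult1c2, with a difference of 1.57 (SE 0.31, adjusted p = 0.0214), higher in NZO islets. Because the score separates the strains, the covariate by its construction multiplies the SE by 2.07 before any change in the residual spread. Sult2b1 (0.58), Ugt8a (-0.88), Gstm5 (-0.66), Gstm4 (0.46), Gstm6 (-0.51) and Sult1b1 (0.57) had differences at least as large as without it. Gstm1 had -0.79, Gstm2 had -0.28 and Gstm3 had -0.31. The differences of Sult4a1 (-0.07, SE 0.165), Gstt3 (0.04, SE 0.19), Mgst1 (-0.08, SE 0.37), Gsto1 (-0.06, SE 0.17) and Ugt2b34 (0.06, SE 0.18) lay near 0. No NZO array had a score within the C3H range, so strain and acinar score cannot be fully told apart in this fit. The part of macrophage, duct, endothelial and stellate cells in these differences was not tested.

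**Figure D4:**
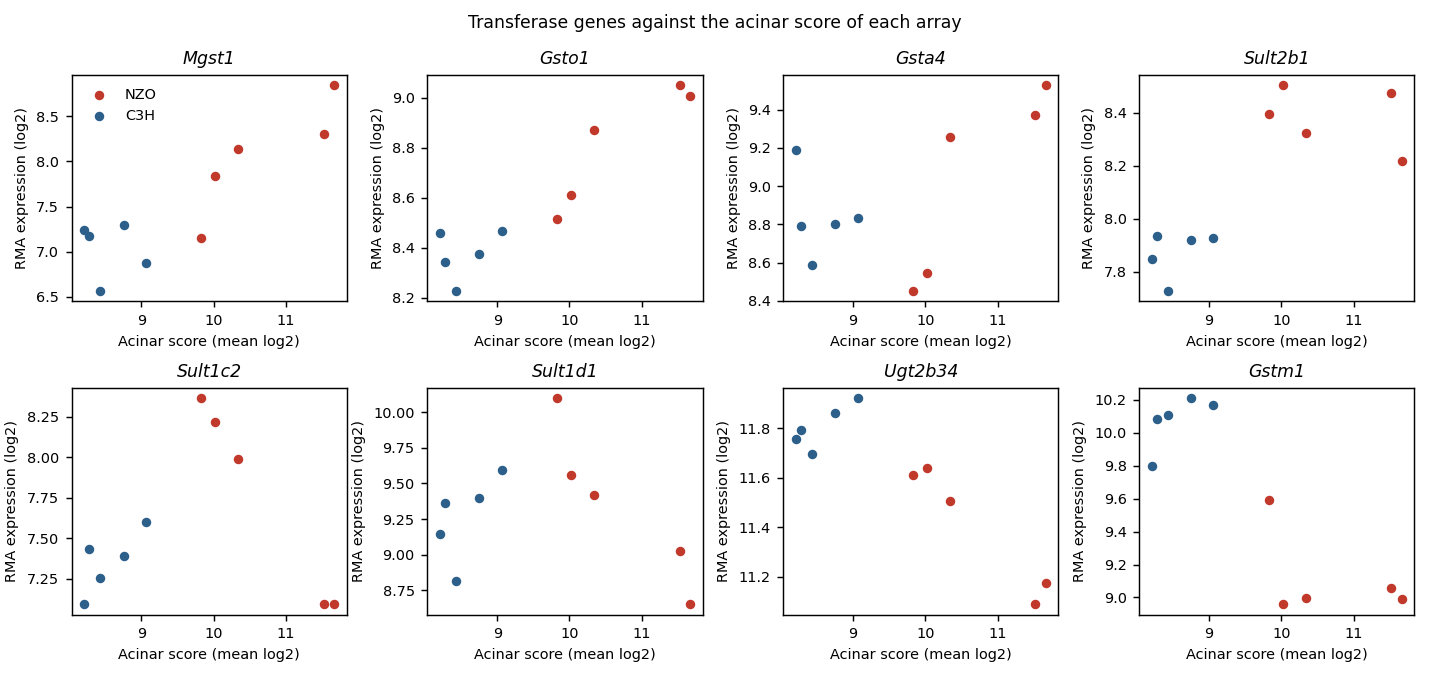
Log2 expression values of 8 transferase genes, chosen after their values were seen, against the acinar score of the same array (mean log2 value of 23 acinar genes), with NZO and C3H arrays in separate colours. Along the NZO arrays Mgst1 runs upward from 7.15 to 8.85 and Sult1c2 downward from 8.37 to 7.09, while Sult2b1 stays between 8.22 and 8.51.

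Genes that supply these reactions, act on their products or regulate them were listed too. Of 89 listed genes 84 were measured, of which 6 were higher and 7 lower in NZO islets, where 5.47% of all genes were higher and 4.61% lower. With 1 array left out, the higher genes numbered 3 to 9, with 3 without NZO replicate 4, C3H replicate 1 or C3H replicate 3. The lower genes also numbered 3 to 9, with 3 or 4 without any of NZO replicates 1 to 4 or C3H replicates 1, 2, 3 and 5. In these repeats 1441 to 2701 of the 19938 genes were called in either direction. Among 26 measured genes of glutathione supply and conjugate handling, 3 were higher and 2 lower, where 10.1% of all genes were called in either direction. Their median difference was 0.09, against -0.02 over all genes. Anpep, a membrane aminopeptidase that cleaves peptides such as those from glutathione breakdown, averaged 10.88 ± 0.16 in NZO and 9.65 ± 0.21 in C3H islets (SD, n = 5 each). The strains did not overlap, and the difference of 1.23 (SE 0.11, adjusted p = 4.5e-06) is 2.34-fold. The export pumps Abcc4 (0.65, SE 0.12, adjusted p = 0.00295) and Abcc1 (0.34, SE 0.10, adjusted p = 0.0341) were also higher. For both pumps the strains overlapped, and among NZO arrays Abcc1 was lowest on arrays 1 and 2 (9.02 and 8.99). Gsr, which regenerates reduced glutathione, averaged 10.62 ± 0.12 in NZO and 10.96 ± 0.06 in C3H islets (SD, n = 5 each) and was 1.26-fold lower without overlap (adjusted p = 0.0110). Lap3, a cytosolic leucine aminopeptidase, was 1.24-fold lower (adjusted p = 0.0463). The genes of glutathione synthesis, Gclc, Gclm and Gss, were not called different.

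Ugdh, the enzyme that makes UDP-glucuronic acid, was the 1 gene called among 6 of that supply, and the median difference of the 6 was 0.04. It had 9.93, 10.00, 10.11, 10.32 and 10.22 in NZO islets, against 10.54, 10.76, 10.63, 10.43 and 10.60 in C3H islets. The strains did not overlap, and Ugdh was 1.39-fold lower in NZO islets (-0.48, SE 0.09, adjusted p = 0.00327). Among 21 measured genes of PAPS supply, sulfate transport and sulfatases, 1 was higher and 1 lower, a share near the 10.1% of all genes. Their median difference was -0.07. Slc26a1, a sulfate transporter, averaged 7.27 ± 0.25 in NZO islets and 6.24 ± 0.13, near background, in C3H islets (SD, n = 5 each), without overlap (adjusted p = 3.85e-05). Arsg, a lysosomal sulfatase, was 1.26-fold lower (adjusted p = 0.00756), and the PAPS synthases Papss1 and Papss2 were not called different. Of 11 measured genes of other conjugating enzymes, 8 were near background in both strains. Of the 11, 2 were lower, where 4.61% of all genes were lower. They were the arsenic methyltransferase As3mt (1.23-fold, adjusted p = 0.0473) and Nat1, an arylamine acetyltransferase near background in both strains (adjusted p = 0.0310). Calls in either direction without NZO arrays 4 and 5 numbered 3 of the 26 glutathione genes and 1 of the 6 of UDP-glucuronic acid supply. Such calls numbered 3 of the 21 genes of the sulfate list and 2 of these 11, where 5.54% of all genes were called.

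Of 20 measured transcription factors of the xenobiotic and antioxidant response and their classical targets, 2 were higher and 1 lower, where 10.1% of all genes were called in either direction. Their median difference was 0.00. Without NZO arrays 4 and 5, 1 of the 20 was called, where 5.54% of all genes were. Txnrd1, a thioredoxin reductase and a classical target of the antioxidant factor Nfe2l2, was 1.25-fold higher (adjusted p = 0.0309). Ahr, the receptor that senses aromatic xenobiotics, had 8.77, 8.48, 8.61, 9.10 and 9.11 in NZO islets, against 8.38, 8.44, 8.31, 8.27 and 8.57 in C3H islets. It was 1.34-fold higher (0.42, SE 0.12, adjusted p = 0.0378), with the highest values on NZO arrays 4 and 5. Maff, a small Maf protein that pairs with Nfe2l2, was 1.31-fold lower (adjusted p = 0.0471). Nfe2l2, Keap1, Nqo1 and Hmox1 were not called different.

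Nfe2l2 with a small Maf protein binds the antioxidant response element, and Ahr with Arnt binds the xenobiotic response element, so the start regions of the transferase genes were searched on both strands for the core letters of each. RefSeq windows in GRCm38.p6, from 250 bases before to 50 after a gene's start, were found for 46 of the 50 genes. TGACNNNGC, the antioxidant core, was found in 4 of these 46 genes (8.70%) and in 13.99% of all 27025 genes with a window. The stretches of these 4 genes are shown because they include 2 called genes that moved in opposite directions, Mgst1 and Gstm5. Capitals mark the match, whose last base, counted from the gene's start, is at position -48 in Mgst1, -34 in Gstm5, -121 in Gstm7 and -113 in Gsta3. In Mgst1 the letters read on the other strand.
Mgst1 at chr6:138140441-138140509, plus strand: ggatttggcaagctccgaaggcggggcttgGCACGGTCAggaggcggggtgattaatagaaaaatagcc
Gstm5 at chr3:107895782-107895850, plus strand: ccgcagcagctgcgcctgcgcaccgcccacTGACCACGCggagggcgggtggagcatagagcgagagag
Gstm7 at chr3:107931705-107931773, minus strand: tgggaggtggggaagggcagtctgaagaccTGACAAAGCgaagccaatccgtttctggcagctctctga
Gsta3 at chr1:21240434-21240502, plus strand: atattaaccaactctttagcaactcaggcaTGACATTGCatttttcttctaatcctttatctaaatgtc

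GCGTG, the core bound by Ahr with Arnt, was found in 10 of the 46 genes (21.74%) and in 35.15% of all genes with a window. It lay in the windows of 5 of the 13 called genes with a window, Gstm1, Gstm5, Sult1b1, Sult2b1 and Ugt8a. In Gstm5 it overlaps the antioxidant core shown above. The other 4 are shown because they are the remaining called genes with this core. Here the match shown, in capitals, has its first base at position -76 in Gstm1, -118 in Sult2b1, -180 in Ugt8a and -196 in Sult1b1. Another match lies in a different start window of Gstm1 (first base at -231) and of Sult2b1 (first base at 30). Gstm5 also has another, with its first base at -171.
Gstm1 at chr3:108018015-108018079, minus strand: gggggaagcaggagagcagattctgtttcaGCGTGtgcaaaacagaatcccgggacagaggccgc
Sult2b1 at chr7:45742562-45742626, minus strand: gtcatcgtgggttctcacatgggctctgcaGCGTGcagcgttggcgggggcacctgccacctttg
Ugt8a at chr3:125938798-125938862, minus strand: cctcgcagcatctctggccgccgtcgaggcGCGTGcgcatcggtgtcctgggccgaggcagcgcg
Sult1b1 at chr5:87536384-87536448, minus strand: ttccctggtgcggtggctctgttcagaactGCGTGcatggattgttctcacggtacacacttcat

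Both core motifs were found in a smaller share of the transferase genes than of all genes. A match describes these letters only, and binding of either factor was not measured.

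Several genes of the families have close copies and could not be followed singly. RefSeq lists 69 protein-coding genes of these families, and 19 of them have no probe set of their own here, among them Gsta1, Gsta2, Gstp2, Sult2a1 and the Ugt1a genes. The 12 probe sets annotated to several symbols were not tested. Gstp1 and Gstp2 share 2 of them, which averaged 9.50 in NZO and 9.77 in C3H islets, and 9.51 in NZO and 9.76 in C3H islets. Both lay in the same direction as the probe set of Gstp1 alone. The 4 probe sets shared by Gsta1, Gsta2 and 2 predicted genes differed by -0.02 to 0.13. Values of single mu, pi, alpha, Ugt2b and Sult2a genes are therefore uncertain in how far each reports its own gene.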

How the data were processed

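Each array has 1 deposited log2 value per probe set. Per the submitters' processing notes, the authors made these with RMA in Affymetrix Expression Console. RMA normalizes the arrays together, gives no detection call and compresses differences at both ends of the brightness range. No software version, probe set library or genome build is given in the sources used here. Per the labels' protocols, 150 ng of RNA was amplified for each array.

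Of 35556 probe sets, 21789 were annotated to 1 symbol, 1621 to several, and 12146 are unnamed here. Entrez identifiers matched 21698 of the single-symbol probe sets to RefSeq genes of GRCm38.p6, with 0 symbols changed. No dim gene was removed and no normalization was added. The strains were compared in limma 3.58.1 (lmFit, then eBayes, two-sided tests), run in R 4.3.3. Benjamini-Hochberg adjustment covered all 19938 genes, and the script was tested on simulated data.

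The members, gene lists and tests were chosen with earlier results of these data known. Values by array were given by rule for every called member, the 2 brightest members of each family, and members not called with a difference of at least 0.5, and statistics for up to 5 called genes of each pathway list. Some names outside this rule are marked in the text. Others, among them Gstp3, Mgst2, Gstt1, Gclc, Papss1 and Nfe2l2, carry no mark and were also not chosen by it. Near-identical copies were to be found from protein identity, which was not analysed here, and were taken from shared probe sets and known families instead. The labels give no batch and replicate numbers pair nothing. They do not say whether arrays hold pools of animals, so the p-values reflect only how these samples vary, which may be technical, and the number of arrays limits the precision. Alternatives covered the choice of probe set, brightness filters, centring, the variance prior, array weights, the threshold, NZO arrays 4 and 5, the acinar score and each array left out in turn.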

Additional observations from a re-analysis of the deposited data

Results flagged for a closer look

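Each strain's 5 arrays were examined for a value set far from the others, as the gap to the nearest other array over the strain's whole range. Of 54 groups of values examined, for the 19 genes named by rule, Sult1c2 and the 7 marker scores in each strain, 3 were past the critical value of 0.71, and chance alone gives about 1 in 20.

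Gstm1 on NZO replicate 2 was 9.590, the highest of its strain, with a ratio of 0.842. The other 4 NZO arrays lay between 8.96 and 9.06. Without that array the difference of Gstm1 was -1.08. Ugt8a on C3H replicate 2 was 8.052, the highest of its strain, with a ratio of 0.758, and the other 4 C3H arrays lay between 7.30 and 7.48. Without that array its difference was -0.57. The endothelial marker score on NZO replicate 2 was 9.292, the lowest of its strain, with a ratio of 0.719.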

How the results depend on the processing

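The main comparison called 6 transferase genes higher and 8 lower in NZO islets, and 6 higher and 7 lower among the pathway genes. Higher transferase genes numbered 3 without NZO replicates 4 and 5, 1 with the acinar covariate, and 2 at an adjusted p below 0.01. Lower transferase genes numbered 0 with the covariate and 5 at an adjusted p below 0.01. Leaving out 1 array at a time gave 5 to 6 higher and 5 to 10 lower, with 5 without C3H replicate 3. Higher pathway genes numbered 10 with array weights, 3 with the covariate and 3 at 0.01, and 3 to 9 with 1 array left out. Lower pathway genes numbered 12 with array weights, 1 with the covariate and 2 at 0.01, and 3 to 9 with 1 array left out. With array weights 4125 of the 19938 genes were called in either direction, against 2010 in the main fit. Transferase genes then numbered 7 higher and 12 lower. Of all genes, 1.08% were called with the covariate, 5.54% without NZO replicates 4 and 5, and 1441 to 2701 genes with 1 array left out. The covariate turned the sign of Mgst1 (-0.083), Gsto1 (-0.056), Ugt2b34 (0.061) and Gstz1 (0.14). Gstz1 also turned without NZO replicates 4 and 5 (0.033). Sult1d1 turned with array weights (-0.056) and ran from -0.10 to 0.26 with 1 array left out. With a trend and robust variance prior the call of Mgst1 was lost (adjusted p = 0.0524), as was that of Gstt3 with arrays centred on their medians (adjusted p = 0.0639). Fewer arrays, the wider SE of the covariate and the stricter threshold act by construction, and other causes were not tested. Dim genes, 22 of the 50, have no fold here.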
